A study of Mus musculus with 2 samples.

Results

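The genes Egr1, Egr2, Egr3, Nr4a1, Ier2, Ier3, Ier5, Btg1, Btg2 and Zfp36 were followed in RNA of 2 cell populations sorted from mouse dorsal skin. All probes that carried one of these 10 names in both scanner tables were taken, which gave 16 of 41174 probes and 25 of 43379 probe spots. Lgr6-high cells were the brightly green fluorescent cells of mice with the Lgr6-EGFP-ires-CreERT2 knock-in allele, and Lgr5-high cells those of mice with the Lgr5-EGFP-ires-CreERT2 knock-in allele. Both populations therefore carried a reporter and recombinase cassette of the same name, each driven by the promoter of the receptor gene that held it, and each sort combined 3 mice. Age, sex and hair cycle stage are not given in the sources used here. RNA of both populations was hybridised together to each of 2 Agilent arrays, with the dyes exchanged between them. On array 1 the Lgr6-high RNA carried Cy5 and the Lgr5-high RNA Cy3, and on array 2 the Lgr6-high RNA carried Cy3 and the Lgr5-high RNA Cy5.

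These 10 genes belong to or are often grouped with the immediate early genes, whose transcription starts quickly after a stimulus such as serum, a growth factor or mechanical stress, without new protein synthesis. Serum response factor with its Elk partners, acting downstream of MAP kinases, and factors of the CREB family switch many of them on. The Egr and Nr4a1 proteins are transcription factors, whereas the Btg and Zfp36 proteins bind the CCR4-NOT deadenylase and promote the decay of mRNA. In skin several of them respond to wounding, and in many tissues they respond to dissociation of the cells.

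The comparison asked whether these genes differed between the Lgr6-high and the Lgr5-high cells. Of the 9 genes bright enough to compare, 8 were higher in Lgr6-high cells and 0 in Lgr5-high cells, while the same rule took 7.28% of all 6194 compared genes toward Lgr6-high cells and 4.76% toward Lgr5-high cells. Mean ratios of the 8 lay between 2.48-fold (Ier5) and 7.08-fold (Nr4a1). The ratio of Egr2, 1.92-fold, fell short of the rule of size, and Egr3 was too dim to compare. By probes, 10 of the 11 compared were higher in Lgr6-high cells, and 0 in Lgr5-high cells, beside 7.08% and 4.53% of all 7279 compared probes. Ratios here are log2 of Lgr6-high over Lgr5-high after background correction and loess, given as mean ± SD over the 2 arrays. The pair of arrays counts as 1 replicate measured with both dye orientations, since the labels do not say that they held different RNA, so no test of the populations was possible. "Higher" and "lower" therefore mean a mean ratio of at least 2-fold with each array's log2 ratio past 0.5 on that side, and the SD measures only the spread between hybridisations. In RNA of sorted pools, fewer cells that express a gene and less RNA per cell cannot be told apart.

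**Figure D1:**
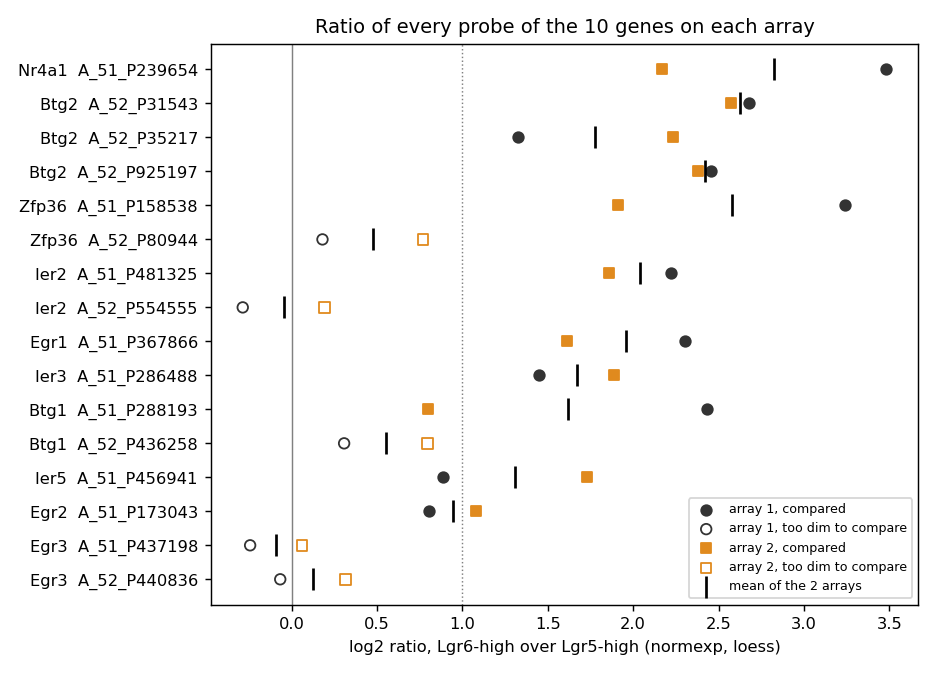
Log2 ratio of Lgr6-high over Lgr5-high cells (x axis) for each of the 16 probes of the 10 genes (y axis). Circles are array 1 and squares array 2, open symbols are probes too dim to compare, and the vertical bar is the mean of the 2 arrays. All 11 compared probes lie to the right of 0 on both arrays, and the dotted line marks a 2-fold mean ratio.

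Signal levels set how the arrays have to be read. Lgr6-high signals were well above background at 15.3% of spots on array 1 and at 33.3% on array 2, and Lgr5-high signals at 31.6% and 16.2%, so that on each array the Cy3 channel was the richer one. The median net signal, the spot signal minus its local background, was 25.6 on array 1 and 49.8 on array 2 for Lgr6-high RNA, against 47.9 and 25.6 for Lgr5-high RNA. A net Cy5 signal below the Cy3 signal of the same spot is therefore the usual state of these arrays, and loess is meant to take it out of the ratios. Of the genes that carried the reporters, Lgr5 was lower in Lgr6-high cells (-1.83 ± 0.12), and Lgr6 was too dim to compare. Lgr5 was bright enough to compare only through Lgr5-high cells, and that filter favours the direction it took. The 10 keratinocyte markers examined, among them Krt5, Krt14 and Trp63, were above background in both populations on both arrays. Over the whole array the rule took 451 genes toward Lgr6-high cells and 295 toward Lgr5-high cells. That split was 212 and 204 without background subtraction, 124 and 151 when the background model was fitted on all spots, outliers included, 134 and 57 with median centring in place of loess, and 958 and 957 with the scanner software's ratios.

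Promoter sequence is shown first for the 4 genes in which a binding site of the factors named above was found, since these genes share their direction in the arrays. RefSeq windows of build GRCm38.p6 ran from 250 bases before to 50 bases after an annotated start. No window of Egr1, Egr3 or Ier2 was searched, so whether their promoters hold such sites was not tested. The 11 windows used belong to 7 of the 10 genes, namely Btg1, Btg2, Egr2, Ier3, Ier5, Nr4a1 and Zfp36. They were searched on both strands for the CArG box bound by serum response factor, for the cAMP response element TGACGTCA, and for the Egr sites GCGTGGGCG and GCGGGGGCG, with no overlap between sites of different kinds. The 250 bases before the start are printed 5′ to 3′ in the direction of transcription, with the sites in capitals.
Zfp36, chr7:28379229-28379478, minus strand: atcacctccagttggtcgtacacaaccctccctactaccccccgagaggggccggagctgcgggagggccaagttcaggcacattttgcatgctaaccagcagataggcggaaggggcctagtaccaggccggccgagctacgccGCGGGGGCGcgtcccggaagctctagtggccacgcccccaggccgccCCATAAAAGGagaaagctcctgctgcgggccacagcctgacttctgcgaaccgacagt
Egr2, chr10:67537619-67537868, plus strand: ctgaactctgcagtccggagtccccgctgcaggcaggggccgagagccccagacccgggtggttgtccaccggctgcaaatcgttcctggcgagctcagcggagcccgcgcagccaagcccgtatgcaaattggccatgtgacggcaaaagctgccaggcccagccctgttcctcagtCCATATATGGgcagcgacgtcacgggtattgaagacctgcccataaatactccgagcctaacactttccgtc
Btg2, chr1:134079156-134079405, minus strand: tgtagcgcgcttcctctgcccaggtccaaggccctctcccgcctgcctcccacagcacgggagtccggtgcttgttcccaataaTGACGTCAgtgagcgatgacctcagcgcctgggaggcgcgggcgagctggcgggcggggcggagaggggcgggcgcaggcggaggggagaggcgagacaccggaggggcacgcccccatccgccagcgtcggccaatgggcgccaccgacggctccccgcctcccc
Nr4a1, chr15:101266596-101266845, plus strand: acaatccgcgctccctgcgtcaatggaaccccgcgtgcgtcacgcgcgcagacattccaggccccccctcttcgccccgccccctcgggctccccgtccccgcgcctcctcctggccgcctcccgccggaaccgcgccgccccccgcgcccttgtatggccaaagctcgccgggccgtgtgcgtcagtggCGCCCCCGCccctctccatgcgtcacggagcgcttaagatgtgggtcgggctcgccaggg

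The CArG box occurred in 1.63% of 32851 RefSeq windows, and in those of Egr2 and Zfp36. In Zfp36 it lay 58 to 49 bases before the start, and in the printed Egr2 window 72 to 63 bases before it. Egr2 had 5 windows, of which 4 held a CArG box, and a different box at chr10:67537494-67537503 served the window of another annotated start. TGACGTCA was present in 1.79% of all windows and in that of Btg2, 166 to 159 bases before the start. GCGGGGGCG was present in 2.91% of all windows, in Zfp36 at chr7:28379325-28379333 and in Nr4a1 at 60 to 52 bases before it on the opposite strand, so that it reads in reverse complement above. GCGTGGGCG, present in 0.612% of all windows, was in none of the 11. Any of the 4 motifs was found in 6.71% of all windows and in 7 of the 11 windows of these genes, 4 of them windows of Egr2, where 3 share the same box. A match says only that these letters occur in the window.

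Among the transcription factors of the 10 genes, Nr4a1, an orphan nuclear receptor also known as Nur77, had the largest mean ratio. Its probe (mm9 chr15:101105071-101105130, plus strand) read 10660 net signal units on array 1 and 68160 on array 2 in Lgr6-high cells, against 7378 and 1713 in Lgr5-high cells. Lgr6-high cells were above Lgr5-high cells on each array. After loess the log2 ratio was 3.48 on array 1 and 2.17 on array 2 (2.82 ± 0.93), and 36 of the 6194 compared genes, 0.581%, had a larger mean ratio. The scanner software's own ratios were closer together, at 3.04 and 3.21. With the background model fitted on all spots, the mean was 1.87 and Nr4a1 was no longer past the rule.

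Egr1, a zinc finger factor that growth factors and injury induce, was measured by 1 probe. Its net signal was 578.3 on array 1 and 4808 on array 2 in Lgr6-high cells, against 574.1 and 232.4 in Lgr5-high cells. The populations were nearly equal in raw signal on array 1, where Lgr6-high RNA was in the weaker dye, and far apart on array 2. The log2 ratios were 2.30 and 1.61 (1.96 ± 0.49), a 3.89-fold difference.

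Egr2, the Krox20 factor, known for its part in myelination and hindbrain patterning, was spotted 10 times on each array, with 1 spot left out as an outlier on array 1. Its averaged net signal (mm9 chr10:67004758-67004817, plus strand) was 192.9 and 1849 in Lgr6-high cells, against 514 and 139.1 in Lgr5-high cells. Lgr6-high cells were thus lower in raw signal on array 1 and higher on array 2. After loess the 9 spots of array 1 had log2 ratios from 0.52 to 1.15 with a median of 0.78, and the 10 spots of array 2 from 0.57 to 1.49 with a median of 1.17. Every spot lay above 0, and the spread over spots of 1 array (SD 0.21 and 0.26) was about that between the arrays (0.20). The mean ratio of 0.94 ± 0.20 was just under the 2-fold minimum, and it was past it at 1.19 with the scanner software's ratios and at 1.08 from array 2 alone.

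Egr3, a related zinc finger factor, was at or near background at both of its probes. At mm9 chr14:70478827-70478886 net signals were 23.16 and 64.36 on arrays 1 and 2 in Lgr6-high cells, against 61.11 and 27.9 in Lgr5-high cells. This probe was well above background in neither population on either array. At mm9 chr14:70481979-70482038 they were 29.42 and 194.8 in Lgr6-high cells, against 71.05 and 34.11 in Lgr5-high cells, and each population was well above background only where it carried Cy3. No ratio of Egr3 is drawn from either probe.

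The Ier genes are named as immediate early response genes, and Ier2 and Ier5 are related in sequence while Ier3 is not of that family. Ier2 read 1458 and 13840 net signal units on arrays 1 and 2 in Lgr6-high cells (mm9 chr8:87185211-87185245, minus strand), against 1874 and 517.8 in Lgr5-high cells. Its raw signal, like that of Egr2, was lower in Lgr6-high cells on array 1 and higher on array 2, and after loess the arrays gave close log2 ratios of 2.22 and 1.86 (2.04 ± 0.25), or 4.11-fold. The 35 mapped bases are part of the 60-base probe. A further Ier2 probe, 1564 bases away in the genome and matched in the files to another cDNA, was too dim to compare, at 34.62 and 118.1 net signal units in Lgr6-high cells and 158.8 and 29.34 in Lgr5-high cells.

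Ier3, also called IEX-1, is a regulator of survival and of ERK signalling. Its probe (mm9 chr17:35959528-35959587, plus strand) gave 264.9 and 3623 net signal units in Lgr6-high cells, against 435.9 and 142.2 in Lgr5-high cells. On both arrays the log2 ratio was well above 0, at 1.45 and 1.89 (1.67 ± 0.31). Ier5, which can bind the heat shock factor Hsf1, read 297.1 and 4247 in Lgr6-high cells (mm9 chr1:156944778-156944837, minus strand), against 813.3 and 188.7 in Lgr5-high cells. Its log2 ratio was 0.89 on array 1 and 1.73 on array 2 (1.31 ± 0.60), the smallest mean among the 8 higher genes. From array 1 alone Ier5 did not reach 2-fold, and its lowest mean over all alternatives was 0.76, with the background model fitted on all spots.

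**Figure D2:**
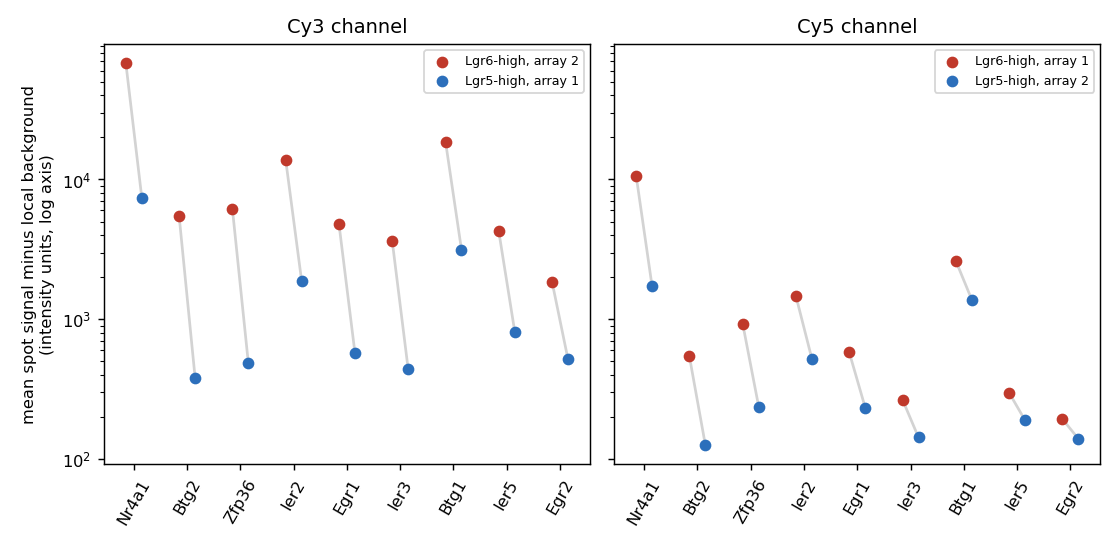
Net signal of the probe that stands for each gene (y axis, intensity units, log axis) in Lgr6-high and Lgr5-high cells, with the Cy3 channel on the left and the Cy5 channel on the right. Within each dye the Lgr6-high point lies above the Lgr5-high point for all 9 genes, and the 2 points of a pair come from different arrays.

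Because the dyes were exchanged, each population was also read in each dye. In Cy3, net signals of the 11 compared probes were 3.60 to 14.4 times as high in Lgr6-high cells (array 2) as in Lgr5-high cells (array 1), where the median over all 7279 compared probes was 1.44. In Cy5, Lgr6-high cells (array 1) had 1.39 to 6.22 times the signal of Lgr5-high cells (array 2), where the median over all was 0.763. All 11 member probes were above the median in both dyes. These ratios are set across arrays and carry the arrays' difference in brightness, and 10.9% of all compared probes in Cy3 and 14.7% in Cy5 reached the lowest member's value.

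Btg2, an antiproliferative gene that p53 and growth stimuli induce, was measured by 3 probes along its mRNA, all of them bright enough to compare. The probe nearest the 3′ end (mm9 chr1:135972094-135972153, minus strand) read 540.2 and 5481 net signal units on arrays 1 and 2 in Lgr6-high cells, against 381.1 and 125.1 in Lgr5-high cells. Lgr6-high cells were higher on each array, and the log2 ratios nearly coincided, at 2.68 and 2.57 (2.62 ± 0.07, 6.17-fold). The middle probe, 1822 bases upstream, gave 524.2 and 3446 in Lgr6-high cells, against 442.5 and 89.05 in Lgr5-high cells, and a ratio of 2.42 ± 0.06. The probe nearest the 5′ end, a further 265 bases upstream in the coding part, is shown because its ratio depends most on the processing among the 3.
Btg2 probe A_52_P35217, mm9 chr1:135974181-135974240, minus strand: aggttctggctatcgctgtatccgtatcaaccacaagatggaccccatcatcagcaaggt

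At that probe net signals were 116.2 and 1099 in Lgr6-high cells, against 142.2 and 21.48 in Lgr5-high cells, the last of these not well above background. Its log2 ratios were 1.32 and 2.23 (1.78 ± 0.64). That is the smallest ratio of the 3 probes, whereas with the scanner software's ratios its mean of 3.71 was the largest, against 3.30 for the probe nearest the 3′ end and 2.80 for the middle one. All 3 Btg2 probes were past the rule in the same direction, and the order of their ratios is not settled. The probe nearest the 5′ end was bright enough to compare only through Lgr6-high cells, and that filter favours the direction it took.

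Btg1, the paralog of Btg2 with a part in lymphocyte quiescence, differed most between the arrays. Its brighter probe (mm9 chr10:96081915-96081974, plus strand) read 2616 and 18700 net signal units in Lgr6-high cells, against 3143 and 1378 in Lgr5-high cells. The log2 ratio was 2.43 on array 1 and 0.80 on array 2 (1.62 ± 1.16), so that array 2 alone did not reach 2-fold. The scanner software's ratios were 1.94 and 1.96. Btg1, Ier2 and Nr4a1 were among the brightest 1% of probes, whose median log2 ratios after loess were 0.18 on array 1 and -0.71 on array 2. The part of that shift in the ratios of these 3 genes was not tested. The other Btg1 probe, 656 bases upstream, was too dim to compare, at 39.72 and 266.4 in Lgr6-high cells and 64.29 and 25.19 in Lgr5-high cells.

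Zfp36, or tristetraprolin, binds AU-rich elements of cytokine mRNAs. Its brighter probe (mm9 chr7:29162132-29162191, minus strand) gave 928 and 6167 net signal units in Lgr6-high cells, against 482.1 and 236.7 in Lgr5-high cells. Lgr6-high cells were higher on each array, with log2 ratios of 3.24 and 1.91 (2.58 ± 0.94, 5.97-fold). A probe 192 bases nearer the 3′ end was too dim to compare, at 31.21 and 117.4 in Lgr6-high cells and 44.83 and 14.25 in Lgr5-high cells.

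In order of the mean log2 ratio the genes ran Nr4a1 (2.82), Btg2 (2.62), Zfp36 (2.58), Ier2 (2.04), Egr1 (1.96), Ier3 (1.67), Btg1 (1.62), Ier5 (1.31) and Egr2 (0.94). The array values of every pair of neighbours in this order overlapped, so the order of neighbours is not settled. Of the 109 genes on the array with a mean ratio of at least 4-fold toward Lgr6-high cells, 4 were Nr4a1, Btg2, Zfp36 and Ier2. Among the 11 compared probes 7 had the larger ratio on array 1, where Lgr6-high RNA carried Cy5. The scanner software's ratios were at least 2-fold toward Lgr6-high cells on both arrays at all 11. With median centring in place of loess, Nr4a1, Btg2 and Zfp36 passed the rule and the other 6 compared genes did not, 5 of the 9 being at or below 0 on 1 array. Btg1 and Ier5 also lost their call without background subtraction.

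Those deposited ratios, which the software computes with its own background and dye steps, put all 9 compared genes past the rule toward Lgr6-high cells, where they took 15.5% of all compared genes toward each population (30.9% in all), with less difference between arrays for Nr4a1, Btg1 and Zfp36. On arrays 1 and 2 they were 3.52 and 3.08 for the brightest Btg2 probe, 3.25 and 2.58 for Zfp36, and 2.54 and 2.23 for Ier2. For Egr1 they were 2.53 and 2.20, for Ier3 2.19 and 2.36, for Ier5 1.28 and 2.05, and for Egr2 1.03 and 1.35. Egr2 was thus the lowest of the 9 by this measure too, and here it passed the rule. At the dim probes they spread widely, as in the Btg2 probe nearest the 5′ end with 2.31 and 5.11 and the dimmer Btg1 probe with 1.62 and 3.16.

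**Figure D3:**
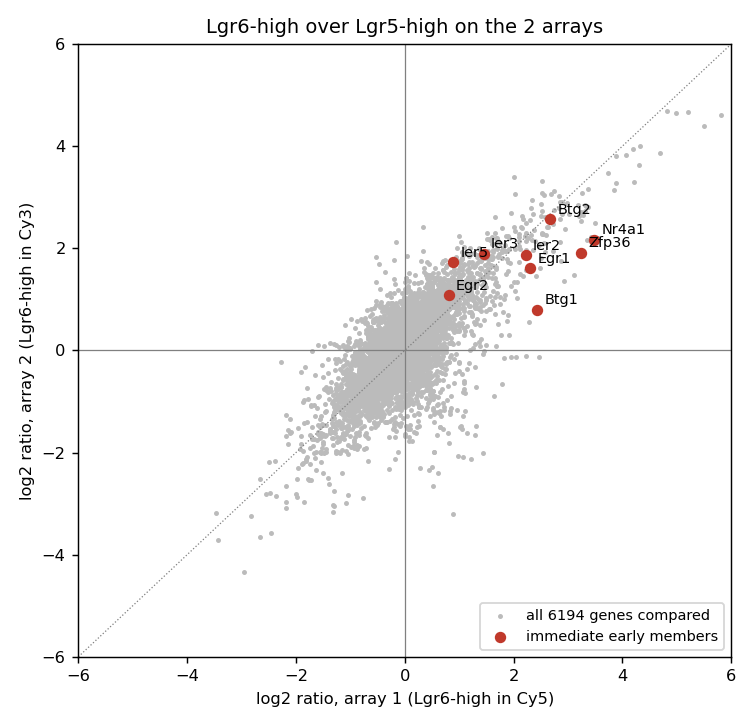
Log2 ratio of Lgr6-high over Lgr5-high cells on array 1 (x axis) and array 2 (y axis) for all 6194 compared genes (grey) and the 9 compared members (red). All 9 lie above and to the right of 0, Btg2 close to the diagonal and Btg1 farthest below it.

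Paralogs and other immediate early genes were read beside these 10. Among 29 compared of 34 other immediate early genes, 16 passed the rule toward Lgr6-high cells and 0 toward Lgr5-high cells, beside 7.28% and 4.76% of all compared genes. The list was chosen with earlier results of these data known. The median ratio of the 29 was 1.18, where the median of all compared genes was -0.05. The 3 largest were Dusp1, a phosphatase that switches MAP kinases off (3.09 ± 0.40), the stress-induced factor Atf3 (2.82 ± 0.86) and the AP-1 subunit Jund (2.32 ± 0.80). Not all genes of that list shared the direction. Below 0 on both arrays, though none past the rule, were 4 genes picked here after their values were seen. They were the ERK phosphatase Dusp6 (-0.63 ± 0.11), the matricellular Ctgf (-0.66 ± 0.45), the serum and glucocorticoid induced kinase Sgk1 (-0.75 ± 0.16) and the C/EBP factor Cebpd (-0.78 ± 0.26).

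Of 11 paralogs 7 were compared, and 2 of these were higher in Lgr6-high cells and 0 in Lgr5-high cells, beside 7.28% and 4.76% of all compared genes. Egr4, the fourth Egr factor, had log2 ratios of 2.69 and 3.06 (2.87 ± 0.26), and the mRNA decay factor Zfp36l1 of 1.06 and 1.16 (1.11 ± 0.07). The median over the 7 was 0.50. The other 5 did not pass, with Nr4a2 at 0.44 ± 0.32, Btg3 at 0.50 ± 0.52, Tob1 at 0.38 ± 0.04, Tob2 at 0.66 ± 0.29 and Ier5l at -0.20 ± 0.14. With the scanner software's ratios 4 of the 7 passed toward Lgr6-high cells, where 15.5% of all compared genes passed toward each population. Among the 4 were Nr4a2 (1.38 and 2.80 on arrays 1 and 2) and Tob1 (1.70 and 1.61). Both Nr4a2 and Tob1 were bright enough to compare only through Lgr6-high cells, and that filter favours the direction counted. For these genes the call depends on the processing.

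The compared genes of the upstream and downstream machinery did not pass the rule after loess, which took 7.28% and 4.76% of all genes toward Lgr6-high and toward Lgr5-high cells. None of 12 compared MAP kinase cascade kinases (median 0.02, range -0.43 to 0.89) was past it in either direction. Nor were the 3 compared genes of the Egr corepressors and regulators, Srf, Mkl1 and Atf1 (median -0.07). All others on that list of 13, among them the corepressors Nab1 and Nab2, the Elk genes, Creb1 and Crem, were too dim to compare. Of 10 compared genes of the CCR4-NOT deadenylase and its partners 0 passed (median 0.26, range -0.30 to 0.60). Among 12 mRNAs known as Zfp36 targets, 9 were too dim to compare, and the chemokine Ccl2 (-0.52 ± 0.01) and the kinase Plk3 (0.84 ± 0.19) did not pass. Ptgs2, the inducible cyclooxygenase, was at background in Lgr5-high cells on both arrays and has only a bound, at least 1.92-fold higher in Lgr6-high cells, which does not settle whether it differed by 2-fold.

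These calls too depend on the processing. With the scanner software's ratios, by which 15.5% of all genes passed toward each population, 3 kinases, 1 of the Egr regulators and 2 Zfp36 targets passed toward Lgr6-high cells and 1 target toward Lgr5-high cells, while 0 of the 10 deadenylase genes did. They are named here after their values were seen. On arrays 1 and 2 the kinase Map2k3 had 0.92 and 1.39, Mapkapk3 1.14 and 1.09, Rps6ka3 0.98 and 1.06, and serum response factor, Srf, 1.87 and 0.57. Of the targets Ptgs2 had 3.91 and 3.80, Plk3 1.51 and 2.18, and Ccl2 -2.01 and -1.27. Map2k3, Rps6ka3, Plk3 and Ptgs2 were bright enough to compare only through Lgr6-high cells, and Ccl2 only through Lgr5-high cells. For these genes the filter favoured the direction counted. Ptgs2 was at background in Lgr5-high cells on both arrays, so the size of its ratio is not settled by this measure either. mRNA levels say nothing here of kinase activity or of decay rates.

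**Figure D4:**
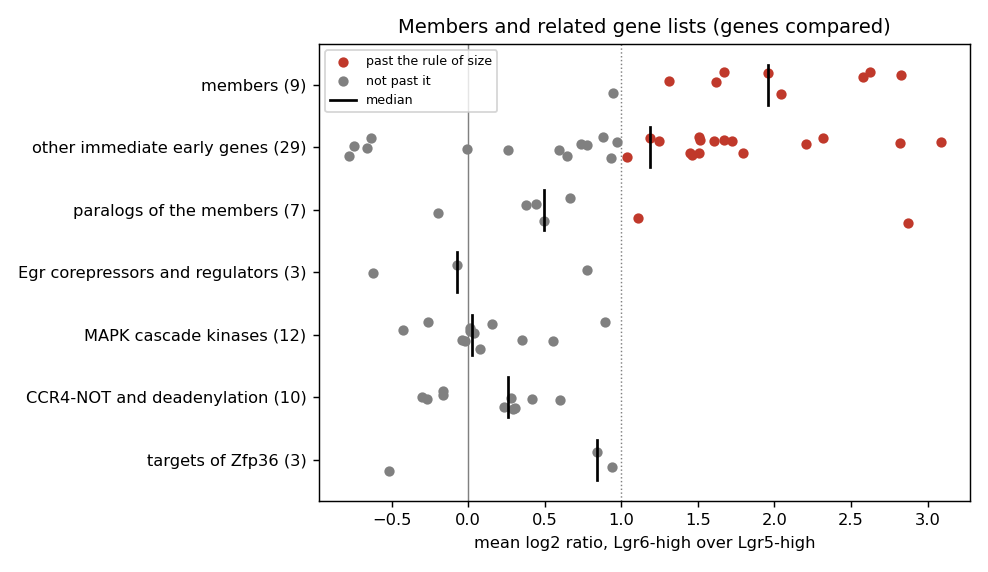
Mean log2 ratio of Lgr6-high over Lgr5-high cells (x axis) for each compared gene of 7 lists (y axis, with the number compared in brackets). Red points are past the rule of size, grey points are not, and the vertical bar is the list's median. The 9 members have a median of 1.96, and MAP kinase cascade kinases of 0.02.

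Markers of cell types moved with the same contrast. Over all compared genes the rule took 7.28% toward Lgr6-high cells and 4.76% toward Lgr5-high cells. Higher in Lgr6-high cells were 6 of 10 compared keratinocyte markers, 5 of 5 suprabasal markers, which include Klf4 of the immediate early list, and 3 of 3 Schwann cell markers. Higher in Lgr5-high cells were 4 of 5 fibroblast markers, 2 of 3 endothelial and mural markers, the 2 red cell markers and the 1 compared melanocyte marker, Dct. The endothelial and mural markers did not share a direction. Tagln and Egfl7 were higher in Lgr5-high cells, whereas Acta2 lay above 0 on both arrays (0.90 ± 0.42) without passing the rule. Pecam1, Cdh5, Kdr and Rgs5 of that list were well above background in neither population on either array. The 5 fibroblast markers, Egfl7 and Dct were bright enough to compare only through Lgr5-high cells, and Krt1, Lor and Mbp only through Lgr6-high cells. For these the filter favoured the direction counted. Col3a1, Dcn, Lum, Egfl7 and Dct were at background in Lgr6-high cells on both arrays, and Krt1 in Lgr5-high cells, so their ratios are only bounds. Summed levels of the suprabasal list were 18405 to 23447 over the arrays in Lgr6-high cells, against 3824 to 4145 in Lgr5-high cells, and those of the fibroblast list 296 to 667 against 1710 to 2925. For the Schwann cell list they were 1826 to 2320 in Lgr6-high cells, against 374 to 531 in Lgr5-high cells. Those of the keratinocyte list differed between the arrays. On array 1 they were 246360 in Lgr6-high cells against 65738 in Lgr5-high cells, and on array 2 nearly equal, at 134343 against 131348. The 9 members themselves summed to 39127 to 56857 in Lgr6-high cells, against 7633 to 11485 in Lgr5-high cells. None of 7 leukocyte markers was bright enough to compare, and Ptprc, Cd52, Lyz2 and Tyrobp were well above background in neither population on either array. The Schwann cell marker Sox10 was likewise at background throughout. The part of cell type makeup in the ratios of the immediate early genes was not tested.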

How the data were processed

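Two-colour arrays of sorted Lgr6-high and Lgr5-high dorsal skin cells were read from 1 scanner table per array. Per the labels' protocols, 150 ng of Trizol-prepared total RNA was labelled after linear amplification. The deposited tables hold spot and local background intensity on a linear scale, extracted with Agilent Feature Extraction 10.5.1.1 per the file headers, whereas the submitters' processing notes name 9.5.3. They also hold the software's log10 ratio of Cy5 over Cy3. The authors' deposited value table equals that log10 ratio, with array 2's sign turned, so both of its columns run Lgr6-high over Lgr5-high, and its column medians were 0. Before turning, the arrays' ratios correlated at -0.4465 (Pearson) over 43379 probe spots. Probe positions are on mm9 per the file headers.

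Background was corrected with normexp (offset 50, limma 3.58.1, R 4.3.3) from mean signal and median local background, fitted on spots without an outlier mark (139 and 204 marked spots, left out of averages). Loess followed within each array with controls at weight 0, and spots of a probe were averaged. No spot was saturated. Summed levels are after loess and Aquantile scaling. A probe was compared if 1 population was well above background on both arrays, and a gene stands by its brightest such probe. Both arrays came from 1 slide.

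The 10 genes and all lists were chosen with earlier results of these data known. All 10 genes were to be named, with every gene of a list past the rule of size, or the 3 largest each way where more than 6 passed. Alternatives changed the background, normalisation, filter, arrays, probe choice and call rule (limma's lmFit and eBayes, Benjamini-Hochberg adjusted p under 0.05 and 2-fold). Gene names are those of the array files.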

Additional observations from a re-analysis of the deposited data

How the results depend on the processing

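All 9 compared genes kept a positive mean ratio under each alternative tried, though not on each array. Without background subtraction, and with outlier spots kept in the fit, 8 of 9 were above 0 on both arrays. Of them 8 were past the rule; 6 were past it without background subtraction (not Btg1, Ier5 or Egr2), 5 with outlier spots kept in the background fit (Nr4a1 lost too) and 3 with median centring and no loess. Under median centring the means were 1.04 to 2.86, but 5 genes were at or below 0 on 1 array, the lowest at -1.11. All 9 were past it with the scanner's ratios and the authors' value table. Limma called 8, by an adjusted p that covers the spread between hybridisations only and is no test of the populations. Array 2 alone gave 8 (Btg1 lost, Egr2 gained) and array 1 alone 7 (Ier5 lost). Of all compared genes, 7.28% were past the rule toward Lgr6-high cells. That share was 3.42% without background subtraction, 2% with outlier spots kept and 2.16% with median centring. It was 15.5% with the scanner's ratios and the value table, 7.39% by limma, 9.86% from array 2 alone and 7.01% from array 1 alone. Btg2 by its brightest probe and Zfp36 kept their call under all 9 alternatives. Not all of these could have changed it. The filter settings leave the ratio of a probe bright in both populations as it is, and the value table repeats the scanner's ratios.

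Member probes numbered 10, against 6 with outlier spots kept, 3 with median centring and 9 to 10 from single arrays. With both populations required above background they numbered 9 of the 10 probes that remained. Probes higher in Lgr6-high cells over the array numbered 515, against 242 without background subtraction, 144 with outlier spots kept, 157 with median centring, 1144 with the scanner's ratios and the value table, and 487 to 714 from single arrays. Those higher in Lgr5-high cells numbered 330, against 161, 61, 1137 and 1137 in the last 4 of these settings, and 357 to 531 from single arrays. Genes higher in Lgr6-high cells were 451, against 212, 124, 134, 958 and 958, and 434 to 611 from single arrays. Genes higher in Lgr5-high cells were 295, against 151, 57, 957 and 957, and 315 to 471. List genes higher in Lgr6-high cells were 18, against 6, 4, 30 and 30, and 19 to 23, and those higher in Lgr5-high cells 0, against 1 with outlier spots kept, 1 with the scanner's ratios and the value table, and 1 from each single array. The cause of these shifts was not tested. No paired analysis was possible because the series holds 1 pair of arrays that share both populations. The number of arrays, 2, limits the precision, and dim probes have no usable ratio.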
